A study of Mus musculus with 6 samples.

Results

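Amino acid transporters are described here through 10 genes of the plasma membrane carriers, found by gene symbol among the 34745 genes of the deposited count table: Slc3a2, Slc7a5, Slc7a11, Slc7a1, Slc7a3, Slc1a4, Slc1a5, Slc6a9, Slc38a2 and Slc43a1. Each symbol matched 1 row. RNA was sequenced from cultures of spermatogonial stem cells of the mouse, which renew themselves and feed sperm production. All cultures were of the strain DBA/2J X c57BL/6J, with an age given as postnatal day 6, and had passage numbers of 15 to 20. The 3 untreated libraries were compared with 3 libraries from cultures kept in complete medium with 100 µM bisphenol A (BPA, written "Bisphnel A" in the labels), a monomer of plastics that can bind hormone receptors, for about 4 days. The labels name no vehicle for the untreated cultures and do not say how many animals or separate cultures the replicates came from, so the spread behind each p-value is that between these samples and may be technical.

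Cells take up amino acids through carriers that differ in their substrates and in what drives them. Some use the sodium gradient to load the cell, and others exchange one amino acid for another, so that substrates gathered by the first kind pay for the uptake of others. Several of these genes are textbook targets of the transcription factor ATF4, which is made when translation initiation is restrained by amino acid shortage, endoplasmic reticulum stress or other stresses and which binds composite C/EBP-ATF elements together with C/EBP partners. The cystine carrier gene Slc7a11 is also a known target of NRF2, the product of Nfe2l2, which binds antioxidant response elements.

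The promoters of Slc7a11 and Slc1a4 are shown because they were the members' windows that held the C/EBP-ATF letters, and both genes were higher under BPA. RefSeq promoter windows (GRCm38.p6, the mm10 assembly, 250 bases before to 50 bases after each start) were found for 7 of the 10 genes, as 10 windows, and none was found for Slc1a5, Slc7a3 and Slc7a5. The sequences below run 5′ to 3′ along the gene, from 250 bases before the start to 15 bases after it, with matches to TGATGNAA on either strand in capitals. The Slc7a11 stretch is chr3:50443599-50443863 and the Slc1a4 stretch is chr11:20332699-20332963, both on the minus strand.
Slc7a11: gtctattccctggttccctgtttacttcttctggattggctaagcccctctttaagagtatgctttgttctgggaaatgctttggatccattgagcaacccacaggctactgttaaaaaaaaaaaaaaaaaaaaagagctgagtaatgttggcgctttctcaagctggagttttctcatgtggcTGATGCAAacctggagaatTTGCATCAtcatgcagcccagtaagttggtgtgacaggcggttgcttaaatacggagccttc
Slc1a4: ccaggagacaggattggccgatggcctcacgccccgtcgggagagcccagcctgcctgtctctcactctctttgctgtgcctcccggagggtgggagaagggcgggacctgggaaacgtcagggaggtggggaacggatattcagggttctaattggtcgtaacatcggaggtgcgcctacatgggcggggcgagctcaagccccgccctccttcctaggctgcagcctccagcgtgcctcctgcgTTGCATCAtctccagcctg
In Slc7a11 the letters occurred at -66 to -59 on the gene's strand and again at -47 to -40 on the opposite strand, with 11 bases between the matches. In Slc1a4 they occurred once, on the opposite strand, from -4 to 4 around the start. Of all 32851 windows of this length 3.97% held TGATGNAA, against 2 of the 10 windows of these genes. The antioxidant response letters TGACNNNGC, searched on both strands, were in 12.4% of all windows and in 5 of the 10. The 5 were those of Slc43a1 and Slc38a2, 1 of the 2 windows of Slc7a1 and 2 of the 3 windows of Slc6a9. None of these 5 windows held TGATGNAA. These matches describe letters in a short window and are not binding sites, and elements elsewhere in a gene were not searched.

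Library totals were 13453280 to 22286517 counts. Counts are given below as normalised CPM (counts scaled to library size) after TMM scaling between libraries, and 3 counts, the limit that a count of 0 allows, stood for 0.122 to 0.235 CPM across the libraries. Intervals and limits of this kind cover counting error only. BPA replicate 2 stood apart: chi-square per degree of freedom between replicates was 64.2 and 84.5 for its pairs and 18.9 to 25.4 for the others. The germ cell markers were present, with 10 of 10 tested and summed levels of 1806 to 1854 CPM in untreated and 1661 to 2081 CPM in BPA libraries. Of these 10, Id4 was lower (26.4 ± 3.59 CPM untreated, 13.1 ± 0.978 CPM under BPA, SD, n = 3 each, edgeR adjusted p = 0.0401), a call lost without any of the 5 libraries besides BPA replicate 2 (adjusted p up to 0.151). DESeq2 and limma-voom each called 2 of the 10 lower (9.24% and 6.93% of all tested genes). Tex101, the largest part of the sum, was at 727 ± 33.7 CPM untreated and 534 ± 58.0 CPM under BPA (SD, n = 3 each). Its groups did not overlap (edgeR adjusted p = 0.053), and it passed as lower in 8 of 14 alternatives. Etv5 went the other way, from 325 ± 14.6 CPM untreated to 443 ± 128 CPM under BPA (SD, n = 3 each). Its groups did not overlap either (log2 fold change 0.45, edgeR adjusted p = 0.158), and it passed in 1 of 14 alternatives. Gfra1 had a log2 fold change of 0.46 (edgeR adjusted p = 0.289). Ddx4 was at 48.2, 9.61 and 41.2 CPM in the BPA libraries. By sign, 5 of the 10 log2 fold changes were positive.

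Of the 10 transporter genes all were tested, 8 were higher under BPA and 0 were lower by edgeR's quasi-likelihood test at a Benjamini-Hochberg adjusted p under 0.05. The 10 genes had been chosen with earlier results of these data known, so this count is a description. Over all 13287 tested genes 580 were higher (4.37%) and 835 lower (6.28%), and scaling by library size alone turned this into 831 higher and 786 lower. DESeq2 gave 8 higher transporters (7.06% of all tested genes) and limma-voom 7 (3.81%), and 0 were lower by either tool (9.24% and 6.93% of all genes) or at an unadjusted edgeR p under 0.05 (12.5% of all genes). The median log2 fold change was 1.86 over the 10 genes and 0.10 over all tested genes (0.21 with library size alone). For the same 8 genes the BPA libraries lay wholly above the untreated ones, which held for 15.6% of all tested genes. In bulk RNA a change in how many cells make a transcript and a change in the RNA per cell cannot be told apart. The counts over all genes depended on the libraries, from 162 higher genes without untreated replicate 1 to 1207 without BPA replicate 2. Of the transporters 6 were higher without untreated replicate 1 (1.18% of all tested genes), 7 without untreated replicate 2 (1.41%), BPA replicate 1 (1.64%) or BPA replicate 3 (2.15%), and 8 without untreated replicate 3 (2.44%) or BPA replicate 2 (8.81%).

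**Figure D1:**
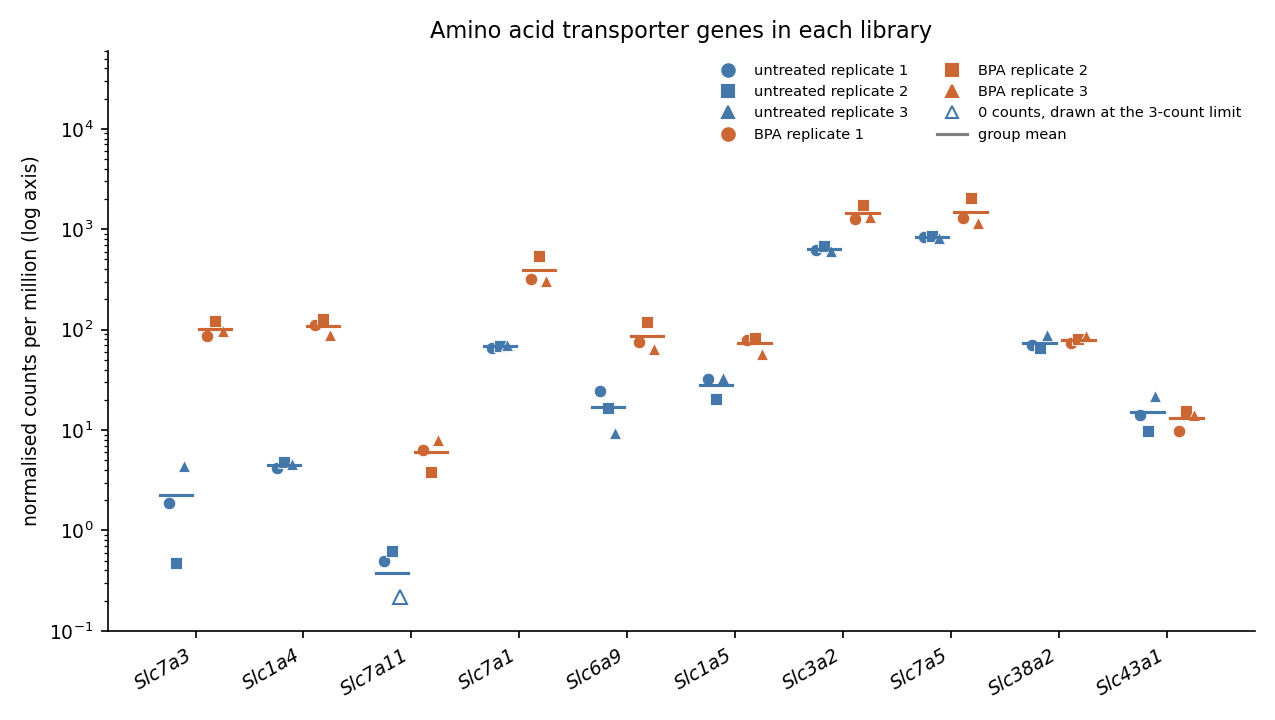
Normalised CPM (log axis) of the 10 transporter genes in each of the 3 untreated and 3 BPA libraries, 1 point a library, with the group mean as a line. The BPA points of 8 genes lie above all untreated points, whereas those of Slc38a2 and Slc43a1 overlap them; Slc7a11 had 0 counts in untreated replicate 3, drawn as an open triangle at its limit of 0.218 CPM.

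The heavy chain Slc3a2 (4F2hc, CD98; chromosome 19, 8706882 to 8723369, mm10) is the glycoprotein that carries several light chains to the cell surface and holds them there by a disulfide bond. In the order of the replicates, the untreated libraries held 623, 676 and 602 CPM and the BPA libraries 1254, 1746 and 1325 CPM. Every BPA library was above every untreated one, with replicate 2 the highest. The mean rose from 634 ± 38.2 to 1442 ± 266 CPM (SD, n = 3 libraries each), a log2 fold change of 1.19 (SE 0.15, edgeR adjusted p = 0.00048).

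Slc7a5 (LAT1; chromosome 8, 121881150 to 121907694) is the light chain that exchanges large neutral amino acids such as leucine, often against intracellular glutamine. Its levels were 836, 864 and 818 CPM untreated and 1289.7, 2052 and 1144 CPM under BPA, so the groups did not overlap and BPA replicate 2 was far above the other BPA libraries. The mean went from 839 ± 22.9 to 1495 ± 488 CPM (SD, n = 3 each), and the log2 fold change was 0.83 (SE 0.19, edgeR adjusted p = 0.0171). The call was lost without untreated replicate 1 (edgeR adjusted p = 0.0944) or untreated replicate 2 (0.0783). Without BPA replicate 2 the log2 fold change was 0.54 (edgeR adjusted p = 0.00088).

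Slc7a11 (xCT; chromosome 3, 49892526 to 50443614) is the light chain of the cystine/glutamate exchanger, which brings in cystine for glutathione synthesis. It was a rare transcript, with 9, 8 and 0 counts in the untreated libraries and 97, 77 and 194 counts under BPA. These correspond to 0.493, 0.628 and 0 CPM untreated, where the 0 allows up to 0.218 CPM, and to 6.35, 3.82 and 7.91 CPM under BPA. The groups did not overlap, and the lowest BPA library was replicate 2, unlike for most of the other genes. Summed counts were 17 (95% exact Poisson interval 9.90 to 27.2) untreated and 368 (331 to 408) under BPA. The mean rose from 0.374 ± 0.331 to 6.03 ± 2.07 CPM (SD, n = 3 each), a log2 fold change of 3.98 (SE 1.02, 95% interval 1.77 to 6.19, edgeR adjusted p = 0.0278). Its call was lost with limma-voom (adjusted p = 0.102) and in edgeR without untreated replicate 1 (adjusted p = 0.0932), BPA replicate 1 (0.0978) or BPA replicate 3 (0.136), while its log2 fold change stayed between 3.38 and 4.60 over the 14 alternatives.

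Slc7a1 and Slc7a3 carry cationic amino acids. Slc7a1 (CAT-1; chromosome 5, 148327410 to 148399904), the widespread carrier of arginine, lysine and ornithine, was at 65.5, 69.5 and 70.3 CPM untreated and at 317, 547 and 304 CPM under BPA. The untreated libraries lay close together and all BPA libraries far above them. The mean rose from 68.4 ± 2.60 to 389.5 ± 137 CPM (SD, n = 3 each), with a log2 fold change of 2.51 (SE 0.22, edgeR adjusted p = 4.6e-05).

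Slc7a3 (CAT-3; chromosome X, 101079210 to 101086020) carries the same kind of substrates and is known mainly from brain and early embryo. It was at 1.86, 0.471 and 4.43 CPM untreated and at 86.2, 121 and 98.1 CPM under BPA. The untreated libraries differed from each other more than the BPA libraries did in relative terms, but none came near them. The mean rose from 2.25 ± 2.01 to 102 ± 17.5 CPM (SD, n = 3 each), a log2 fold change of 5.49 (SE 0.52, edgeR adjusted p = 7.5e-05), at rank 36 of 13287 genes by fold change. The estimate leaned on the untreated libraries: without untreated replicate 3 it was 6.39, and without untreated replicate 2 it was 5.04.

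Slc1a4 (ASCT1; chromosome 11, 20302180 to 20332713) exchanges serine, alanine, cysteine and threonine in a sodium-dependent manner. Its levels were 4.16, 4.79 and 4.57 CPM untreated and 111, 128 and 88.3 CPM under BPA. The untreated libraries were alike, and the gap to the BPA libraries was wide. With a rise from 4.51 ± 0.317 to 109.0 ± 19.9 CPM (SD, n = 3 each) it had a log2 fold change of 4.60 (SE 0.25, edgeR adjusted p = 5.3e-07), the smallest adjusted p of the 10 genes.

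Slc1a5 (ASCT2; chromosome 7, 16781340 to 16798274), the related exchanger best known for glutamine, was at 32.2, 20.2 and 32.8 CPM untreated and at 79.1, 83.1 and 57.1 CPM under BPA. All BPA libraries were above all untreated ones. The mean rose from 28.4 ± 7.07 to 73.1 ± 14.0 CPM (SD, n = 3 each), a log2 fold change of 1.36 (SE 0.25, edgeR adjusted p = 0.006).

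Slc6a9 (GlyT1; chromosome 4, 117834506 to 117875198) is a sodium- and chloride-dependent glycine carrier. It was at 24.7, 16.5 and 9.29 CPM untreated and at 76.0, 119 and 64.2 CPM under BPA, with no overlap. The mean rose from 16.8 ± 7.72 to 86.5 ± 28.9 CPM (SD, n = 3 each), a log2 fold change of 2.36 (SE 0.35, edgeR adjusted p = 0.00149). Of its exon bases 30.2% are shared with B4galt2, Ccdc24 and Gm17114 in the GENCODE vM21 annotation. The library kit does not mark strand, so reads from the shared bases cannot be assigned by strand. B4galt2 was at 94.9 ± 6.61 CPM untreated and 71.1 ± 14.8 CPM under BPA (SD, n = 3 each; log2 fold change -0.42, edgeR adjusted p = 0.21). Ccdc24 had 0 counts in the untreated libraries and 1, 7 and 10 under BPA, and Gm17114 had 0 in all. In GENCODE vM21 the other 9 genes share no exon base with another gene, but the annotation release behind the counts is not given.

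Slc38a2 and Slc43a1 did not pass the test. Slc38a2 (SNAT2; chromosome 15, 96687394 to 96699698), the sodium-coupled carrier of small neutral amino acids that is a classical amino acid starvation gene, was at 69.7, 65.1 and 87.7 CPM untreated and at 73.0, 80.5 and 85.7 CPM under BPA. The groups overlapped, with means of 74.2 ± 11.9 and 79.7 ± 6.39 CPM (SD, n = 3 each). The log2 fold change was 0.11 (SE 0.19, edgeR adjusted p = 0.785), and the 95% interval of the fold, 0.809 to 1.43, ends below the fold estimated for each of the 8 higher genes, of which the smallest was 1.78 for Slc7a5 (interval 1.34 to 2.37). A correction for GC content and length gave -0.14.

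Slc43a1 (LAT3; chromosome 2, 84838850 to 84863594), a uniporter of leucine and other large neutral amino acids that works without Slc3a2, was at 14.1, 9.89 and 21.8 CPM untreated and at 9.75, 15.6 and 14.1 CPM under BPA. The groups overlapped. The means were 15.3 ± 6.07 and 13.1 ± 3.03 CPM (SD, n = 3 each), with a log2 fold change of -0.22 (SE 0.38, edgeR adjusted p = 0.778) and a 95% interval of the fold of 0.489 to 1.52. Without untreated replicate 3 the log2 fold change was 0.17.

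**Figure D2:**
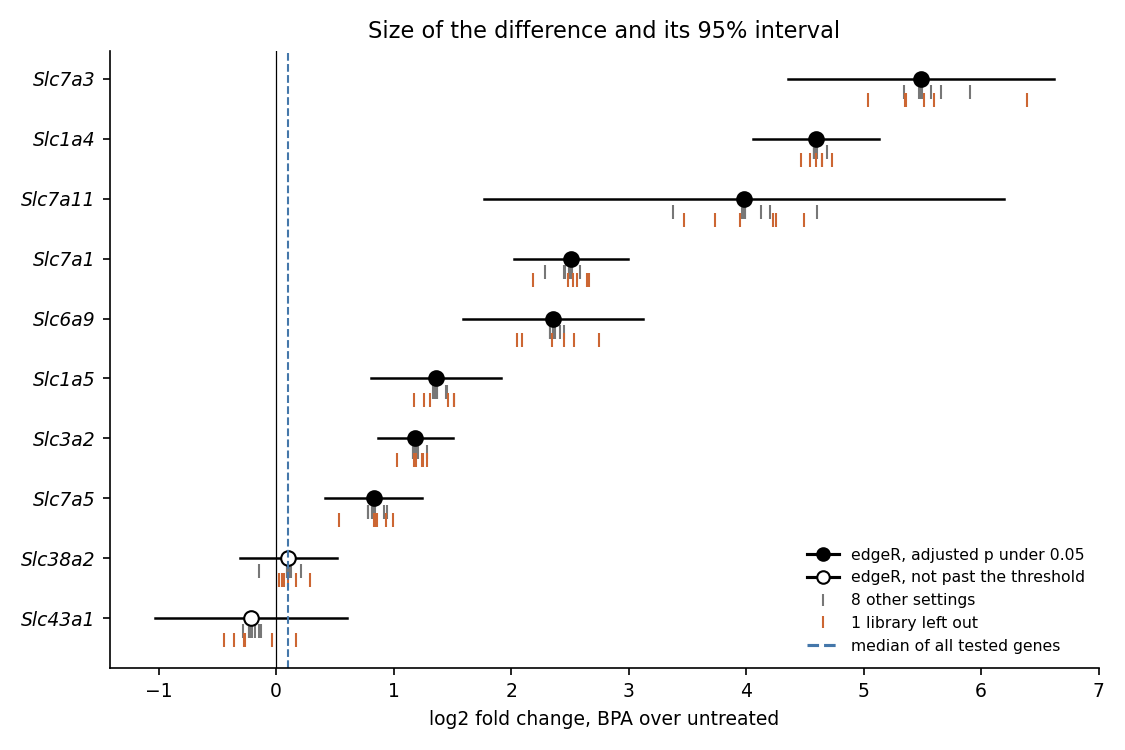
Log2 fold change, BPA over untreated, of each transporter gene with its 95% interval from edgeR (n = 3 libraries a group), filled where the adjusted p was under 0.05; ticks are the 8 other settings (grey) and the fits with 1 library left out (orange), and the dashed line is the median of all tested genes (0.10). The estimates run from -0.22 for Slc43a1 to 5.49 for Slc7a3, and the interval is widest for Slc7a11 (1.77 to 6.19), the gene with the fewest counts.

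For 8 of the 10 genes BPA replicate 2 was the highest BPA library. The exceptions were Slc7a11 and Slc38a2. Without this library the 8 genes that had passed the test with all libraries were higher again, at a background of 8.81% of tested genes, with log2 fold changes of 1.03 for Slc3a2, 0.54 for Slc7a5, 4.23 for Slc7a11, 2.18 for Slc7a1, 5.35 for Slc7a3, 4.47 for Slc1a4, 1.26 for Slc1a5 and 2.05 for Slc6a9. The 10 genes together took 0.159%, 0.164% and 0.164% of the counts of the untreated libraries and 0.354%, 0.461% and 0.351% of those of the BPA libraries. Most of this was Slc7a5 and Slc3a2, which held 86.0% to 89.2% of the members' counts untreated and 77.0% to 77.6% under BPA.

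Levels per length gave an order of the carriers within each group. With the gene lengths behind the deposited FPKM, untreated libraries had most Slc7a5 (195 ± 5.31 CPM per kb), then Slc3a2 (95.5 ± 5.75) and Slc38a2 (16.0 ± 2.58), followed by Slc7a1 (5.48 ± 0.208) and Slc1a5 (4.12 ± 1.02; all SD, n = 3). Slc43a1 and Slc6a9 overlapped at 1.72 CPM per kb each, and so did Slc1a4 (0.648) and Slc7a3 (0.372), above Slc7a11 (0.0238). Under BPA Slc7a5 (347 ± 113) and Slc3a2 (217 ± 40.1) again led, and Slc7a1 (31.2 ± 11.0) came before Slc38a2 (17.2), Slc7a3 (16.8) and Slc1a4 (15.7), where each overlapped its neighbour. Slc1a5 (10.6) and Slc6a9 (8.85) overlapped as well, and Slc43a1 (1.48) and Slc7a11 (0.384) were lowest. On this scale Slc7a3 and Slc1a4 were among the rarest of these carriers in untreated libraries and at the level of Slc38a2 under BPA.

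The order depends on the length used, since the deposited lengths were 0.523 to 1.90 times the union of exons in GENCODE vM21. With exon unions, chosen after seeing the data, Slc38a2 was 8th under BPA at 9.02 CPM per kb, and Slc3a2 (409) and Slc7a5 (403) overlapped. Slc7a11 was the lowest in both groups on either scale.

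**Figure D3:**
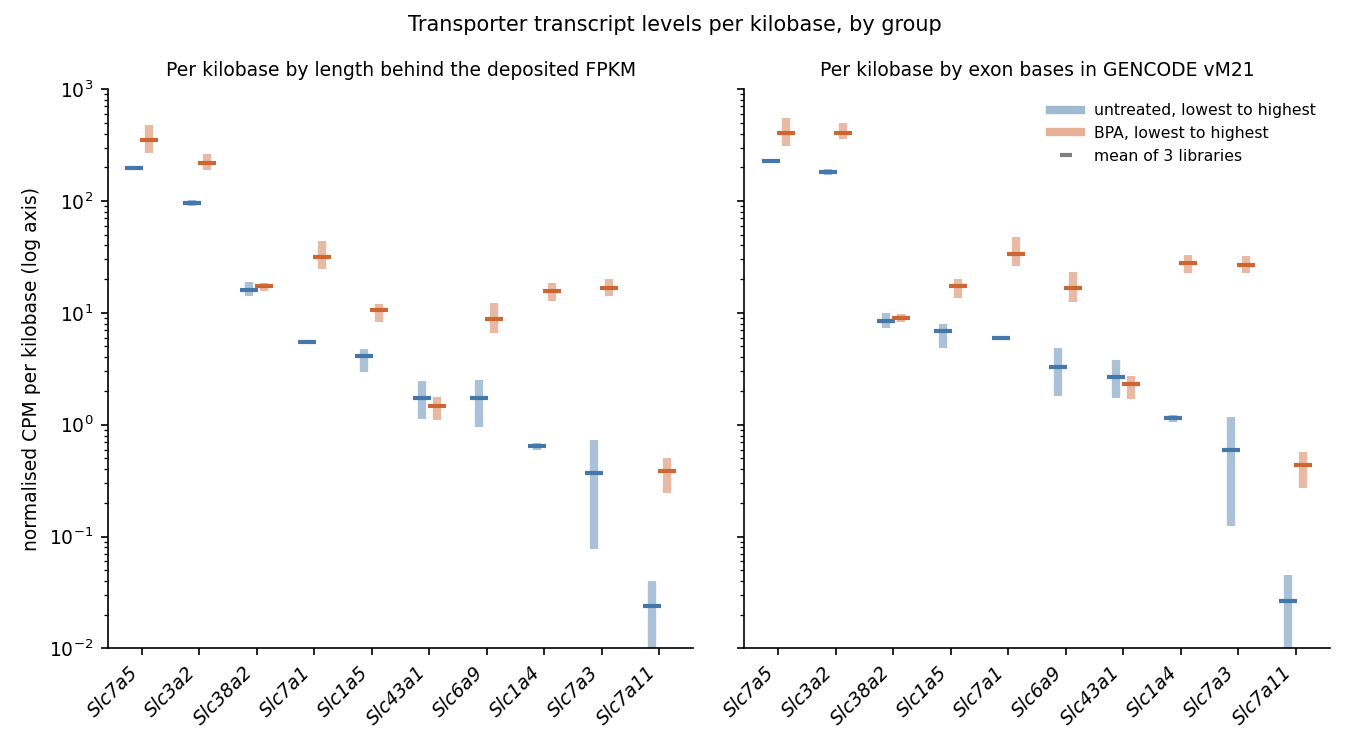
Level of each transporter in normalised CPM per kb (log axis) by the deposited gene length (left) and by exon bases in GENCODE vM21 (right), as the mean (line) and the lowest to highest (bar) of 3 libraries for the untreated and BPA groups. Slc7a5 and Slc3a2 lead in both groups, and Slc7a11 is lowest; its untreated bar is drawn to the foot of the axis because replicate 3 had 0 counts.

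Slc3a2 can pair with several light chains, and the measured light chains were summed per kb of deposited gene length, on which the shares depend. Slc7a5 made up 88.0% to 91.3% of this sum in untreated and 92.0% to 94.5% in BPA libraries. Of the partners outside the 10 genes, Slc7a6 had a log2 fold change of 0.37 (edgeR adjusted p = 0.301), Slc7a7 of -0.08 (0.879) and Slc7a8 of -0.88 (0.238), and Slc7a10 had 0 counts in every library.

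Ratios within a library compare related carriers without the scaling between libraries. The Slc7a3 to Slc7a1 ratio per kb was 0.0586, 0.0139 and 0.130 untreated and 0.560, 0.454 and 0.663 under BPA, a mean difference of 3.55 on the log2 scale (2.66 without untreated replicate 2 and 4.27 without untreated replicate 3). The Slc1a4 to Slc1a5 ratio was 0.128, 0.234 and 0.138 untreated and 1.39, 1.53 and 1.53 under BPA, a difference of 3.20, so that the rarer SLC1 exchanger of untreated cells was the more abundant one under BPA on the deposited lengths. Light chains Slc7a5 and Slc7a11 summed over Slc3a2 were 2.07, 1.97 and 2.09 untreated and 1.59, 1.81 and 1.33 under BPA, a difference of -0.38. The size of these ratios also rests on the deposited lengths. By exon unions the means of Slc7a5 and Slc3a2 were 226 and 180 CPM per kb untreated, and 403 and 409 under BPA. The Slc7a11 to Slc7a5 ratio, with 0.5 counts added because of the library at 0, differed by 3.85, a value that depends on that addition and was 2.53 without that library (untreated replicate 3), 4.44 without untreated replicate 1 and 4.59 without untreated replicate 2. In each of the 4 ratios the groups did not overlap, and the exact two-sided permutation p was 0.1 before and after Benjamini-Hochberg adjustment, the smallest that 3 against 3 libraries allow, so no ratio can pass 0.05.

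**Figure D4:**
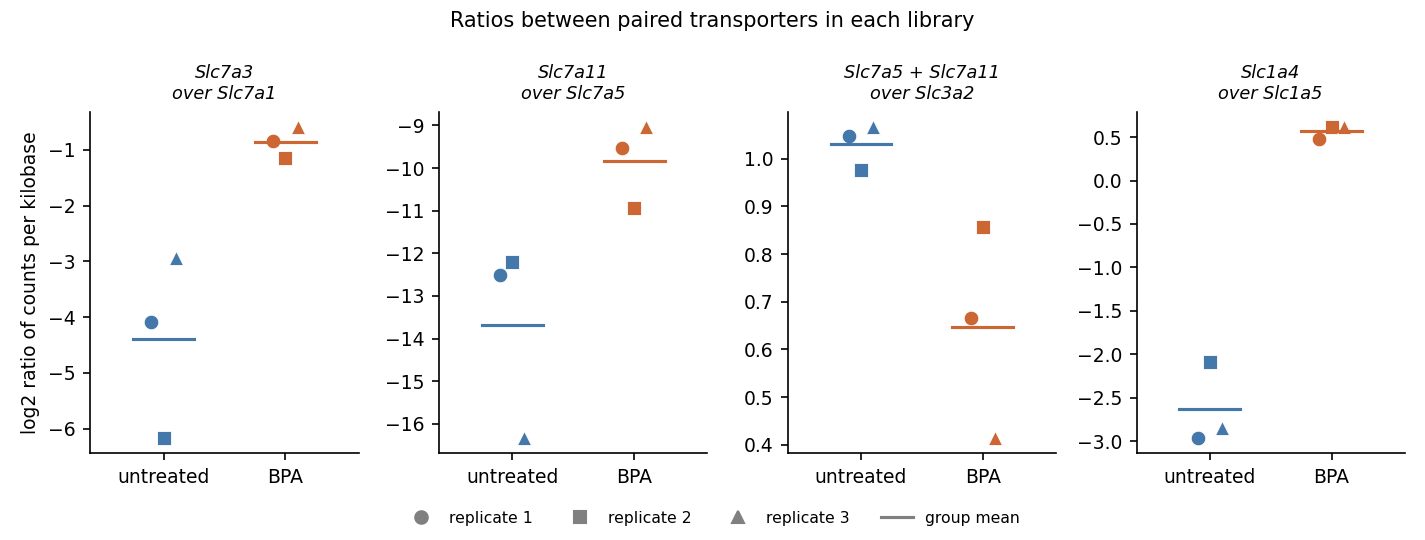
Log2 ratios per kb between related carriers in each library, 3 untreated and 3 BPA points a panel with the group mean as a line; the Slc7a11 over Slc7a5 panel has 0.5 counts added. All BPA points lie on one side of the untreated points in the 4 panels, above for 3 ratios and below for the light chains over Slc3a2.

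Among 59 other amino acid transporters, in 3 lists, 34 were tested, 2 were higher and 2 lower, with a median log2 fold change of -0.11. These counts are near the shares over all tested genes, 4.37% higher and 6.28% lower. Of 37 further plasma membrane carriers 15 were tested, 11 had 0 counts in all libraries, and the median log2 fold change of those tested was -0.08. Slc38a1 (SNAT1), a sodium-coupled glutamine carrier related to Slc38a2, rose from 75.9 ± 0.739 to 149.0 ± 28.4 CPM (SD, n = 3 each; log2 fold change 0.97, SE 0.18, edgeR adjusted p = 0.00587) and passed in all 14 alternatives. Slc38a4 (SNAT4), a carrier of neutral and cationic amino acids, fell from 76.2 ± 10.3 to 43.3 ± 5.19 CPM (SD, n = 3 each; log2 fold change -0.82, SE 0.20, edgeR adjusted p = 0.0254), a call lost when any of the 5 libraries besides BPA replicate 2 was left out (adjusted p up to 0.127).

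Of 10 lysosomal and endosomal transporters 9 were tested, with a median log2 fold change of -0.01. Ctns, the lysosomal cystine exporter, was at 28.7 ± 2.61 CPM untreated and 51.4 ± 8.66 CPM under BPA (SD, n = 3 each; log2 fold change 0.84, SE 0.23, edgeR adjusted p = 0.0367). Of 12 mitochondrial carriers 10 were tested, with a median of -0.19. Slc25a38, the glycine carrier needed for heme synthesis, was at 23.3 ± 4.86 CPM untreated and 10.9 ± 2.24 CPM under BPA (SD, n = 3 each; log2 fold change -1.10, SE 0.32, edgeR adjusted p = 0.046). Leaving out any of the same 5 libraries lost both calls, with adjusted p up to 0.143 for Ctns and 0.181 for Slc25a38, and library size scaling lost Slc25a38 (adjusted p = 0.0541). With any of these 5 left out, 1 gene of the 3 lists was higher and 0 were lower, where 2.06% to 3.44% of all tested genes were lower. Without BPA replicate 2 there were 2 higher and 5 lower, at 8.81% and 11.7% of all tested genes.

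**Figure D5:**
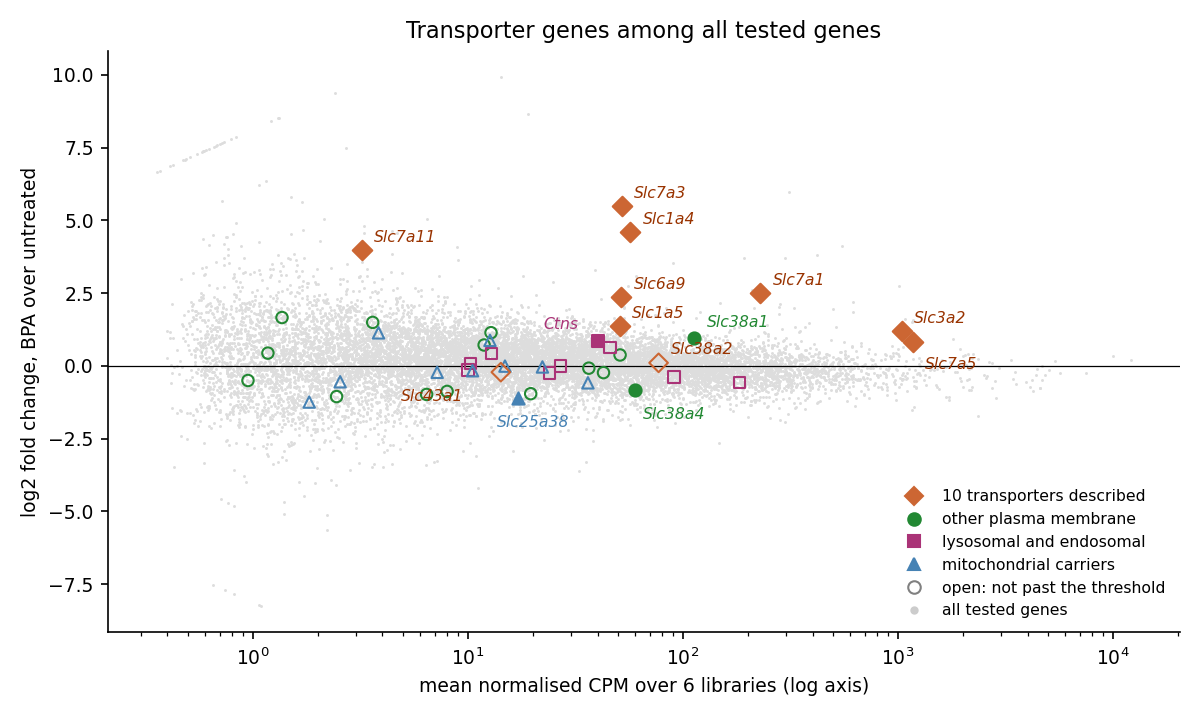
Log2 fold change, BPA over untreated, against mean normalised CPM over the 6 libraries (log axis) for 13287 tested genes (grey), the 10 transporters (diamonds) and the tested genes of the 3 other lists; filled symbols passed the threshold. The 8 higher transporters lie between 0.83 and 5.49, and the tested genes of the other lists spread around 0.

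The transcription factors known to act on transporter genes were measured in the same libraries. Atf4 rose from 55.7 ± 8.39 to 782 ± 29.7 CPM (SD, n = 3 each; log2 fold change 3.81, edgeR adjusted p = 1.2e-07). Cebpb, which encodes a C/EBP partner of ATF4, rose from 4.73 ± 2.79 to 20.3 ± 5.62 CPM (SD, n = 3 each; 2.10, edgeR adjusted p = 0.0214), a call lost without untreated replicate 1 or 2 (adjusted p up to 0.0608). Cebpg, another partner, was at 7.57 ± 6.34 and 30.6 ± 8.75 CPM (SD, n = 3 each; 2.01, edgeR adjusted p = 0.0512) and passed in 7 of 14 alternatives. Of the Cebpb exon bases 20.7% are shared with Tmem189 in GENCODE vM21, and the library kit does not mark strand.

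Nfe2l2 was at 66.0 ± 4.43 CPM untreated and 46.0 ± 5.50 CPM under BPA (SD, n = 3 each; log2 fold change -0.52, edgeR adjusted p = 0.122), and it passed as lower with the GC and length correction (adjusted p = 0.00687). Myc, which is known to act on Slc7a5, had a log2 fold change of 0.67 (edgeR adjusted p = 0.644). Trp53, whose product is known to repress Slc7a11, had one of 0.01 (edgeR adjusted p = 0.978), whose sign differed between alternatives. Transcript levels of these factors do not measure their proteins or their binding.

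Markers of other cell types that such cultures could hold were summed in each library, and their part in the transporter changes was not tested. The 12 fibroblast markers summed to 317 to 369 CPM untreated and 238 to 491 CPM under BPA, highest in BPA replicate 2. Of the 10 tested, edgeR called 0 (4.37% of all tested genes were higher and 6.28% lower). At an unadjusted edgeR p under 0.05, 2 were lower (12.5% of all tested genes). DESeq2 called 1 lower (9.24% of all tested genes) and limma-voom 0 (6.93%). Fn1 made up most of the sum, at 206 ± 14.8 CPM untreated and 271 ± 109 CPM under BPA, while Col1a1, Col1a2 and Col3a1 had log2 fold changes of -0.57, -0.76 and -1.89 (SD, n = 3 each; edgeR adjusted p = 0.338, 0.224, 0.127 and 0.0715 in this order), and Col3a1 passed in 5 of 14 alternatives. Fbn1 was at 2.00 ± 1.78 and 5.83 ± 0.960 CPM with no overlap (SD, n = 3 each; log2 fold change 1.53, edgeR adjusted p = 0.375). The log2 fold changes of Dcn, Pdgfra, Col5a2, Pdgfrb and Mmp2 were 1.06, 0.12, -0.01, -0.05 and -0.58, and edgeR called none of them. By sign, 4 of the 10 tested fibroblast markers were positive and 6 negative, with a median of -0.03. Lum and Postn were under 1 CPM. The 8 Sertoli cell markers summed to 13.6 to 16.2 CPM untreated and 29.7 to 48.9 CPM under BPA, where Amh, Cldn11 and Inha were under 1 CPM, and Rhox5 and Fshr were at 0. Of the 3 Sertoli markers tested, Sox9 passed as higher (8.64 ± 0.550 to 24.5 ± 5.01 CPM, SD, n = 3 each, edgeR adjusted p = 0.0104; 0.0594 without untreated replicate 1). Gata4, higher at an unadjusted p alone, was at 1.32 ± 0.516 and 4.88 ± 2.43 CPM with no overlap (SD, n = 3 each, edgeR adjusted p = 0.138), and Wt1 at 4.50 ± 0.982 and 8.47 ± 3.41 CPM (edgeR adjusted p = 0.278). The 4 peritubular myoid markers summed to 20.0 to 24.7 and 18.1 to 29.5 CPM, and the 5 Leydig cell markers to at most 0.986 and 1.30 CPM. The 5 macrophage markers summed to 53.7 to 57.0 CPM untreated and 28.3 to 46.1 CPM under BPA, with Adgre1, Csf1r and Ptprc under 1 CPM. Cd68 made up most of this sum, at 50.9 ± 2.29 CPM untreated and 33.6 ± 8.58 CPM under BPA (SD, n = 3 each). Its log2 fold change was -0.60 (edgeR adjusted p = 0.14), and edgeR called 0 of the 2 macrophage markers tested.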

How the data were processed

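Total RNA was made into libraries with a TruSeq kit that does not mark strand, per the labels' protocols. The submitters' processing notes name TopHat2 2.0.9, HTSeq and mm10. Annotation release and strand setting: not given in the sources used here. Raw gene counts, 1 column a library, were deposited by the authors, and all tests used them. The FPKM values the authors deposited equal counts over a gene length and the column total, and served only to recover that length. Columns were matched to samples by the code in each title.

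Counts were filtered with filterByExpr, scaled by TMM and tested with edgeR 4.0.16 (quasi-likelihood, R 4.3.3), BPA against untreated, over all 13287 genes kept, with p adjusted by Benjamini-Hochberg (threshold 0.05). The SE is the size of the log2 fold change over the square root of F. Values after ± are SDs over 3 libraries. Alternatives were DESeq2 1.42.0, limma-voom (limma 3.58.1), DESeq2 size factors, library size alone, no low-count filter, a minimum of 1 CPM in 3 libraries, a replicate block, a lowess correction (span 0.3) for GC content and length, and leaving out each library. The tests were checked on a single set of simulated counts, drawn with the means and dispersions that edgeR had fitted. There DESeq2 made more false calls than edgeR or limma-voom and also found more of the changes put in. A single draw of this kind cannot rank the tools for these data. Exon unions as gene lengths and the authors' GO terms as a gene list were added after the data were seen. All 10 members, genes past the threshold in the 3 other lists and 6 transcription factors were named by rule; light chain partners, the genes sharing exons with Slc6a9 and some cell type markers were named besides, after their values were seen. The members and lists were chosen with earlier results of these data known. Promoters are from RefSeq, loci from the deposited table. Python 3.11.15 and matplotlib 3.10.9 drew the figures.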

Additional observations from a re-analysis of the deposited data

How the results depend on the processing

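The 10 transporters under 14 alternatives gave 140 values, of which 132 kept their direction and their side of the threshold, 6 lost the call (Slc7a11 in 4 and Slc7a5 in 2) and 2 changed sign (Slc38a2 to -0.14 with the GC and length correction, Slc43a1 to 0.17 without untreated replicate 3). Between 6 and 8 of the 10 were higher in every alternative and 0 lower. Over all genes 938 were higher with DESeq2, 927 without a low-count filter, 900 with the GC and length correction and 831 with library size alone (786 lower), against 580, and leaving out 1 library gave 162 to 1207 higher and 282 to 1600 lower. Of the other amino acid transporters, 34 tested in the main fit, 4 were lower with DESeq2 (9.24% of all tested genes). The GC and length correction also gave 4 (9.29%) and the replicate block 4 (7.41%), against 2 (6.28%). These counts were near the shares over all genes. Leaving out 1 library gave 1 to 2 higher (1.18% to 8.81% of all tested genes) and 0 to 5 lower (2.06% to 11.7%). The cause of these shifts was not tested. Trp53, near 0, was at -0.0073 with DESeq2 and with its size factors, -0.0067 with limma-voom and -0.0086 with the block, and leaving out 1 library gave -0.17 (without BPA replicate 2) to 0.10; for Slc43a1 that range was -0.44 to 0.17.

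Deviations of libraries with the same replicate number were at most weakly correlated (-0.0205 to 0.0672, against -0.0792 to 0.0280 for different numbers). With 3 libraries a group this cannot show whether they shared a culture or batch, and the labels do not say. The replicate block gave 721 higher and 985 lower genes and 8 higher transporters. The ratio of Slc7a11 to Slc7a5 could not be computed without added counts, since 1 library had 0. Depth limits Slc7a11 most, with 17 counts over the untreated libraries.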

Other observations

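The authors' table marks genes with the GO term for amino acid transmembrane transporter activity, a list used after the data were seen. It held 73 genes, of which 43 were tested, 11 were higher and 1 was lower under BPA, with a median log2 fold change of 0.37 (0.10 over all tested genes, of which 4.37% were higher and 6.28% lower). The list includes transporters described above, so its count is not separate from theirs. Of the 73 genes, 18 were in none of the lists above, 8 of them were tested and 1 was higher. That gene was Serinc1, which encodes a membrane protein that takes part in bringing serine into lipids and which was singled out after its values were seen. It was at 8.59 ± 3.44 CPM untreated and 27.3 ± 11.7 CPM under BPA (SD, n = 3 libraries each), with a log2 fold change of 1.67 (SE 0.43, edgeR adjusted p = 0.0282). The call was lost when any of the 5 libraries besides BPA replicate 2 was left out (adjusted p up to 0.136).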
